A study of Mus musculus with 3 samples.

Results

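Processed pseudogenes are copies of mature messenger RNAs that were reverse transcribed and inserted back into the genome. In polyadenylated RNA of mouse macrophages, 230 of 9940 genes annotated with only processed_pseudogene transcripts reached 1 TPM (a share of all transcripts in which counts are scaled by transcript length) in each of 3 libraries, among 55536 mouse genes in all. That threshold was applied to the gene quantification deposited by the authors, which is called the first quantification here. It was derived from reads aligned to the transcriptome. A second deposited quantification, made from the same reads and an index, was added up per gene and set beside it. The levels that chose the 230 members are therefore a description. The question addressed is which of them differ between the quantifications, each of which had to assign reads shared with other genes. The part of that assignment was not tested apart from other differences between the quantifications.

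The cells were bone-marrow-derived macrophages of the inbred strain C57BL/6J, phagocytes grown from marrow in culture, exposed to 100 ng/mL lipid A for 180 min. The treatment field of the labels names lipoprotein A instead. All libraries belong to this single treated group and carry 1 donor identifier, with biological replicate numbers 1, 2 and 3, so no value is a response to the stimulus and the spread between libraries may be partly technical. Expected counts of mouse genes summed to 24450338, 34641026 and 60595742 in replicates 1, 2 and 3, and estimated counts of the second quantification to 32061558, 38137403 and 67455702. All 10 macrophage markers examined, Adgre1, Csf1r and Lyz2 among them, were detected in every library, at 22740 to 32946 TPM in sum, whereas 8 neutrophil markers summed to 48.4 to 714 TPM, 6 T cell markers to 25.2 to 46.5 TPM and 5 B cell markers to 1.43 to 2.71 TPM. A bulk level cannot tell fewer cells of a type from less RNA per cell.

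A processed pseudogene lacks the introns of its source gene and, when inserted recently, still carries nearly the same bases. Short genes transcribed at high levels in the germ line, above all those of ribosomal proteins, have left many such copies in mammalian genomes. A read that lies wholly within identical bases fits the copy and the source equally well, and a quantification has to divide such reads between them by a model. A base that differs is what can tell the loci apart.

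The following sequences, from the GENCODE M21 transcripts (mm10), show the range of likeness among the members, with bases that differ within a pair in capitals. Gm10443, the highest member, has no difference from the coding sequence of Rps28, a protein of the small ribosomal subunit, over its whole length of 210 bases (chr6:86334031-86334240, plus strand).
Gm10443: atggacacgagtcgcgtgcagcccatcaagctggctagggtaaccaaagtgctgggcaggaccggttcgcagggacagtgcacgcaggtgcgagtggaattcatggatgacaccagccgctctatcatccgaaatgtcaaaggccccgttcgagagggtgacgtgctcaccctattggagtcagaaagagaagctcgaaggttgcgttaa
Mpc1-ps, whose closest gene Mpc1 encodes a subunit of the mitochondrial pyruvate carrier, differs at 1 base, which lies in the first 120 bases shown (chr12:110858775-110858894, minus strand, and Mpc1 at chr17:8283891-8296579, plus strand, introns included).
Mpc1-ps: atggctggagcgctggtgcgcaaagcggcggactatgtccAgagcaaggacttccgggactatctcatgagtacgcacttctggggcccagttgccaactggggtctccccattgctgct
Mpc1: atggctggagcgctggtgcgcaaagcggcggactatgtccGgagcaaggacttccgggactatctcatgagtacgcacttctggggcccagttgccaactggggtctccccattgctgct
Eif4a-ps4, closest to Eif4a1, a gene for an RNA helicase of translation initiation, also differs at 1 base of the 120 shown (chr1:60704405-60704524, plus strand, and chr11:69668675-69669118, minus strand, intron included).
Eif4a-ps4: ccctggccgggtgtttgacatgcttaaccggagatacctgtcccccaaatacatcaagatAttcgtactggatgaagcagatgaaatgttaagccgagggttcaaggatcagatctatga
Eif4a1: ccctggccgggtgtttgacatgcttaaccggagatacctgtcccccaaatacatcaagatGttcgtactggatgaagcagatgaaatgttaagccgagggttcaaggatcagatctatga
Gm5345, a diverged copy of the glycolytic enzyme gene Gapdh, differs at 8 of 120 bases (chr8:40854342-40854461 and chr6:125162557-125162676, both minus strand).
Gm5345: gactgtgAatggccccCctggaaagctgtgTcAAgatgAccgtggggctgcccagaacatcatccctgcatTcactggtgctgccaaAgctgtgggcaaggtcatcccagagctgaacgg
Gapdh: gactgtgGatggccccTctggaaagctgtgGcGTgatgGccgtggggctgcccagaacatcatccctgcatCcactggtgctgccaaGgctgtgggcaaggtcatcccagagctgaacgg
Gm12250 has 33 differences in 120 bases from its closest protein-coding gene, Gm5431 (chr11:58188051-58188170, plus strand, and chr11:48889277-48889396, minus strand).
Gm12250: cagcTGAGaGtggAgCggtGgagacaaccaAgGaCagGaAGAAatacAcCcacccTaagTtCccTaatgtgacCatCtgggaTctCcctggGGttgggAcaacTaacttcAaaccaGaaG
Gm5431: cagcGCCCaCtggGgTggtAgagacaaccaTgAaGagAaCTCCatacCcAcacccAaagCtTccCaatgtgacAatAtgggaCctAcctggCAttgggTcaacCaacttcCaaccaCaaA

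Most members resembled the first 3 of these pairs rather than the last. Identity with the closest protein-coding transcript had a median of 99.6% over the aligned bases, was 99% or more in 168 members and fell below 90% in 7. The closest gene by alignment need not be the source of a member. Where a member is called a copy of a gene, or from it, the closest gene is meant. In 59 members the whole transcript matched a stretch of a protein-coding transcript with no difference, 1 of them in the reverse orientation. The share of 31-base words that occur in no transcript of another gene (unique words) had a median of 5.88% over the members and 84.6% over the 9938 processed pseudogenes long enough to hold a word. No unique word was present in 74 members (32.2%) and in 462 of the 9938 processed pseudogenes (4.65%). Conversely, more than 50% of the words were unique in 15 members and in 7243 processed pseudogenes, so that 0.207% of the distinct copies were members against 16.02% of those with no unique word. A single differing base goes far on this measure: Mpc1-ps had 10.3% unique words.

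Levels in the first quantification ran from 1.14 to 1202 TPM in the mean of the 3 libraries, with a median of 6.56 TPM. Of the members, 17 averaged 100 TPM or more, 89 averaged 10 TPM or more and 96 stayed under 5 TPM. The 10 highest members held 59.6% ± 3.19 (SD, n = 3) of the members' summed TPM. Summed expected counts were 42653, 50213 and 79296 in replicates 1, 2 and 3, or 0.174%, 0.145% and 0.131% of the library. Individual members rested on 0.78 to 17859 expected counts per library, and 45 had fewer than 10 in at least 1 library. At the threshold, Gm10093 (closest gene Hdac1), Gm6768 (Ncoa4) and AC124512.1 (Eef1a1) were just inside, with lowest values of 1.01, 1.02 and 1.03 TPM. Fabp3-ps1, Gm7846 and Rpl17-ps5 were just outside, each with a lowest value of 0.99 TPM.

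Among the 10 highest members, some levels rested on few counts of a short transcript, and some differed widely between the quantifications. What part length or assignment had in this was not tested. Gm10443 had 874, 1264 and 1467 TPM in replicates 1, 2 and 3 of the first quantification and was listed at 0 in every library of the second. These TPM came from 296, 366 and 867 expected counts, and the first quantification gave the 210-base transcript an effective length (the number of positions at which a fragment could start) of 21.1, 12.4 and 14.9 bases. By mean count Gm10443 ranked 25 among the members. The second quantification gave the same transcript effective lengths of 52.3, 48.7 and 51.8 bases. Gm14303, a 171-base exact copy within Rps29, had 1056, 72.4 and 84.8 TPM from 138, 6.46 and 16.7 counts, and was listed at 0 throughout the second. Its value in replicate 1 stood far above the other two, and its effective length was 8.14, 3.84 and 4.98 bases. In 16 members the first effective length was under 50 bases in at least 1 library, and these held 24.6% of the members' summed TPM.

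Rps23-ps1, an exact copy within the small-subunit gene Rps23, had 698, 842 and 890 TPM in the first quantification and 916, 792 and 732 TPM in the second. The ranges overlapped, and the log2 ratio of second to first (0.1 TPM added to both) was 0.01 ± 0.35 (SD, n = 3). It lies opposite an exon of Gm5148, and the sources used here do not say if strand was kept. Gm7536, an exact copy within Rpl27a, also differed by less than 2-fold, at 646 ± 77.2 and 892 ± 66.6 TPM, a log2 ratio of 0.47 ± 0.24. Rpl31-ps8, an exact copy within Rpl31, stood at 722 ± 61.0 TPM in the first quantification and 438 ± 139 TPM in the second. Rpl36a-ps2 had 300.2 ± 96.9 and 146 ± 17.1 TPM, a log2 ratio of -0.99 ± 0.38. None of these 4 members has a unique word.

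Tpt1-ps3 and Gm10123 were higher in the second quantification. Tpt1-ps3, an exact copy within the gene of translationally controlled tumour protein, had 826, 389 and 460 TPM in replicates 1, 2 and 3 of the first and 1856, 856 and 968 TPM in the second. Replicate 1 was highest in both, and the log2 ratio of 1.13 ± 0.05 was nearly the same in each library. Gm10123, identical to a stretch of Ppia, the gene of the abundant prolyl isomerase cyclophilin A, went from 407, 343 and 255.55 TPM to 785, 779 and 544 TPM, with no overlap between the quantifications. Gm12338, an exact copy within the cytochrome c oxidase subunit gene Cox7c, had 253, 427 and 357 TPM in the first quantification. In the second it had 117, 0 and 0 TPM. The remaining member of the 10, Gm12250, is described below.

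**Figure D1:**
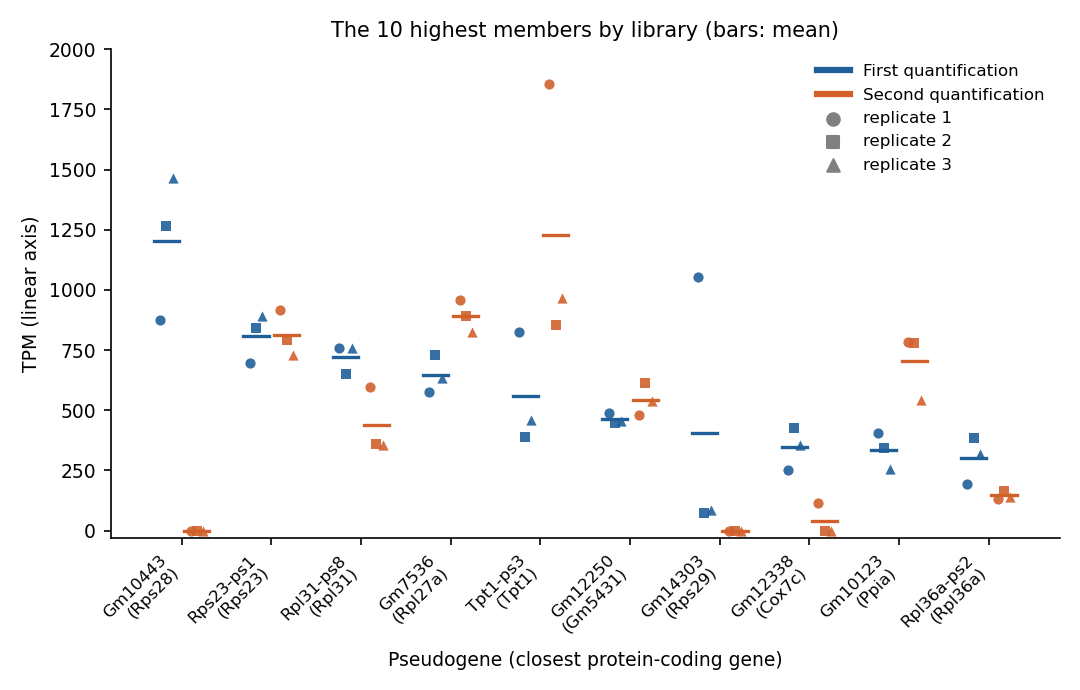
TPM of the 10 highest members in each library (symbols) and their mean (bars), first quantification in blue and second in orange, on a linear axis. Gm10443 and Gm14303 lie at 0 in the second quantification, Rps23-ps1 and Gm12250 lie within 2-fold of their first values, and Tpt1-ps3 reaches 1856 TPM in replicate 1.

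Across all members the second quantification was mostly lower. Of 230 members, 139 were lower by 2-fold or more in every library and 7 were higher, while 1.87% of all 11339 genes tested were lower and 5.05% higher by the same rule. The 11339 genes include 217 of the members, so the 212 lower genes behind the 1.87% include members as well. Another 41 members differed by less than 2-fold in every library, and 43 were mixed. Among 9380 detected protein-coding genes, 30 were lower (0.32%) and 19 higher (0.203%). The median log2 ratio of the members was -3.22 (-2.80 when members at 0 in the second quantification were put at the level of 3 counts per library), against -0.24 for detected protein-coding genes. Because the members were chosen for being high in the first quantification, a shift downward in the second is partly built into the choice, so the members' differences are given as values with their SD over libraries and without a test.

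**Figure D2:**
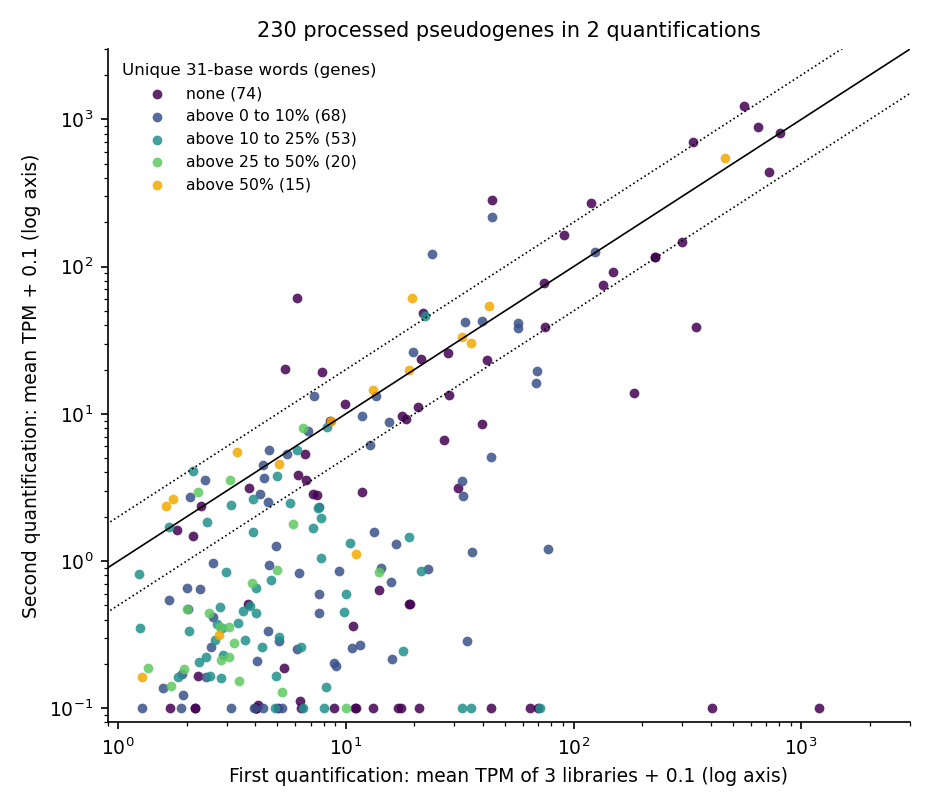
Mean TPM of each of the 230 members in the first (x axis) and second (y axis) quantification, both with 0.1 TPM added and on log axes, coloured by the share of unique 31-base words; the solid line marks equality and the dotted lines 2-fold. The 34 members at 0 in the second quantification form the lowest row, and Gm10443 is the farthest to the right among them, at 1202 TPM.

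At the threshold of 1 TPM the choice of quantification decided membership for most of the genes. The same rule applied to the second quantification picked 136 processed pseudogenes, of which 75 were also in the first list, 32.6% of the 230 members and 55.1% of the 136. In the second quantification, 34 members were listed at 0 in all libraries, 105 (these included) stayed under 1 TPM in all libraries, and 50 were under 1 TPM in some. Mpc1-ps had 69.4, 70.1 and 73.5 TPM in the first, with an SD of 2.20 TPM, and 0 in the second. With 3 estimated counts per library put in place of 0 it was 74.6-, 74.9- and 163-fold lower. Rps6-ps4, an exact copy of a stretch of Rps6, had 60.3, 71.4 and 62.1 TPM against 0. With the same 3 counts it was 278-, 315- and 543-fold lower. The 3 counts cover counting error only. They do not bound how many shared reads could belong to a member. Rps12l1, with 31.5, 104 and 74.6 TPM against 0, completed the 5 most negative differences, with Gm10443 and Gm14303.

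The median difference between quantifications changed with unique sequence in a step rather than in proportion. The median log2 ratio was -3.91 for the 74 members with no unique word, -3.38 for 68 members with up to 10%, -3.24 for 53 members with 10 to 25% and -3.17 for 20 members with 25 to 50%. It was 0.04 for the 15 members above 50%, of which 10 differed by less than 2-fold in every library, 3 were lower and 1 higher. Lower members numbered 36 of 74, 43 of 68, 40 of 53 and 17 of 20 in the other classes, in order of unique sequence. The share lower in every library thus rose with unique sequence up to 50%, while the median changed little. Within the class without unique words the ratios spread from -13.5 to 3.38, and both directions occurred: 36 members lower, 4 higher and 34 neither. Of the 59 exact copies, 24 were lower and 4 higher, and of the other 171 members, 115 were lower and 3 higher. The exact copies held 74.9% of the members' summed TPM in the first quantification.

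**Figure D3:**
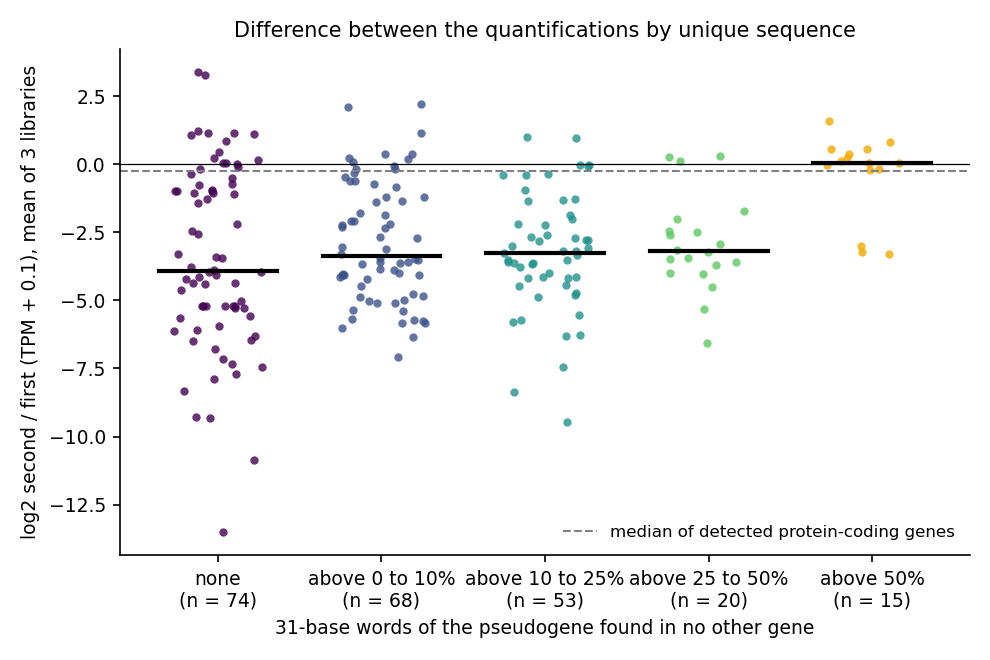
Mean log2 ratio of second to first TPM (0.1 added) for each member, by class of unique 31-base words, with black bars at the class medians and a dashed line at the median of detected protein-coding genes, -0.24. The medians of the first 4 classes lie between -3.91 and -3.17 and that of the last at 0.04.

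The first quantification also gives a posterior standard deviation of each count, a measure of how uncertain the division of shared reads was. It was 0 in every library for 12 members (5.22%) and for 6340 of 9380 detected protein-coding genes (67.6%). Relative to the posterior mean count its median over members was 10.8%, and it exceeded 20% in 64 members. With the deposited posterior mean TPM in place of the TPM, the rule of 1 TPM in every library picked 1030 processed pseudogenes. This is a change of estimator, and what part shared reads had in it was not tested. Of the 9940 processed pseudogenes, 1646 had an expected count above 0 in any library. The deposited lower bound of the TPM interval, whose level the sources used here do not give, was 1 TPM or more in all libraries for 152 members. That interval need not hold the TPM that chose the members: in replicate 1 Gm12250 had 489 TPM and bounds of 443 and 463 TPM. The 12 members with a posterior standard deviation of 0 had a median log2 ratio of 0.18, with 2 lower, 1 higher and 9 neither. The other 218 had a median of -3.30, with 137 lower and 6 higher.

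Of these 12 members, 10 were under 95% identical to their closest gene. Gm12250 (chr11:58187739-58189012, plus strand, 1 exon) had 489, 449 and 456 TPM in the first quantification and 479, 615 and 537 TPM in the second, a log2 ratio of 0.22 ± 0.24. All of its words were unique and it held 20.6% ± 1.91 (SD, n = 3) of the members' expected counts, the most of any member. Although annotated as a processed pseudogene here, this locus is known to encode Irgb10, an immunity-related GTPase induced by interferon that acts on the membranes of intracellular bacteria. Gm5970, closest to the related GTPase gene Iigp1, had 33.8, 46.8 and 16.3 TPM against 29.7, 54.0 and 14.96 TPM, with the same order of libraries in both. BC023105, closest to the interferon-inducible GTPase gene Gm4841, had 13.0 ± 5.06 and 14.4 ± 6.12 TPM. That such GTPase genes occur among the closest genes was noticed after the values were seen. Their share over all members was not counted, so these members are given as a description.

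Bambi-ps1, a copy of the gene for the decoy receptor BAMBI of the TGF-beta family, had 66.4, 22.9 and 37.4 TPM in the first quantification and 80.4, 30.5 and 50.8 TPM in the second. Its own values exceeded those of Bambi, which averaged 0.7 and 0.554 TPM. Gm6545, 73.2% identical to the antiviral protease gene Fam111a, had 15.6, 23.1 and 17.9 TPM against 13.6, 27.8 and 18.2 TPM. Gm5345, the diverged Gapdh copy, had 8.48 ± 0.82 and 8.82 ± 1.95 TPM. Among the low members of this set, Gm47727, Gm17907 and Gm19241 averaged 3.23, 1.64 and 1.51 TPM in the first and 5.36, 2.54 and 2.25 TPM in the second. Gm19253, with Mrps36 as its closest gene, was higher in the second, at 57.4, 83.4 and 41.9 TPM against 21.7, 21.7 and 14.9 TPM. It rested on 27, 30 and 38 counts in the first quantification and 162, 232 and 242 in the second, so the counts themselves differed. Snrpert and Rps15-ps2 went the other way: Snrpert, from the splicing factor gene Snrpe, had 10, 13 and 11 counts in the first and 0 in the second, and Rps15-ps2 had 2.95 ± 1.79 against 0.12 ± 0.21 TPM.

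Grouped by the function of the closest gene, cytosolic ribosomal proteins formed the largest named group, with 71 members (30.9%). They had 55 different closest genes, with 44 members matching a large-subunit gene and 25 a small-subunit gene. Their summed level was 6320, 5420 and 5651 TPM in replicates 1, 2 and 3 of the first quantification, 58.8%, 57.2% and 62.9% of all members, and 4931, 3270 and 3079 TPM in the second. Of the 71, 52 were lower by 2-fold or more in every library, 3 were higher and 16 neither, and the median log2 ratio was -4.05. In the second quantification 46 of them averaged under 1 TPM. Of the second sum, Rps23-ps1, Gm7536 and Rpl31-ps8 made up 813, 892 and 438 TPM in the mean.

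Genes of the respiratory chain, the mitochondrial complexes that carry electrons to oxygen and make ATP, were the closest genes of 6 members, with 4 lower and a median of -2.27. Gm12338 led this group. Ndufb4c, matching a complex I subunit gene, had 149 ± 34.0 TPM in the first and 91.3 ± 23.8 TPM in the second, a log2 ratio of -0.71 ± 0.15. Gm10221, from the ATP synthase gene Atp5l, had 107, 18.5 and 4.52 TPM in the first and 0 in the second, with replicate 1 far above the others. The 7 members from glycolytic enzyme genes had 4 lower and a median of -3.31. Gm7336, a Gapdh copy without unique words, had 44.7, 20.3 and 28.2 TPM against 5.45, 2.22 and 1.503 TPM, whereas the diverged copy Gm5345 kept its level. Gm5537, from the phosphoglycerate kinase gene Pgk1, had 26.8 ± 2.51 against 6.54 ± 4.62 TPM.

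Members from translation factor genes numbered 8, with 4 lower, 1 higher and a median of -2.29. Gm6548 and Gm13456 both have Eef1a1, the gene of the factor that delivers aminoacyl-tRNA to the ribosome, as their closest gene. Gm6548 has 53.3% unique words and had 35.5 ± 10.1 and 30.4 ± 6.74 TPM. In contrast Gm13456, with 26.8% unique words, had 13.9 ± 6.23 and 0.748 ± 0.13 TPM. The 7 members from chaperone and cyclophilin genes had 5 lower and a median of -2.995, but their summed level was 378 ± 79.8 TPM in the first and 729 ± 143 TPM in the second, of which Gm10123 made up 335 and 703 TPM. Ptges3-ps, from the Hsp90 co-chaperone gene Ptges3, had 21.3 ± 11.5 and 23.4 ± 12.5 TPM.

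Members from genes of RNA-binding proteins had the lowest median of the groups, -4.83, with 7 of 9 lower. Gm7964, from the hnRNP gene Hnrnpk, had 20.7, 17.1 and 15.6 TPM against 0.271, 0.103 and 0.055 TPM. Those from GTPase and signalling genes followed with a median of -4.66 and 5 of 6 lower; Gm4202, from the 14-3-3 gene Ywhaz, had 10.6 ± 3.81 against 0.157 ± 0.273 TPM. The 5 cytoskeletal members had 4 lower and a median of -2.60, led by the cytoplasmic actin copy Gm12715 at 77.1 ± 12.2 against 1.11 ± 0.25 TPM. Chromatin proteins gave 7 members, 3 of them lower, with a median of -3.77. Gm15387, an Hmgb1 copy without unique words, kept 28.1 ± 12.0 and 25.6 ± 13.7 TPM. In contrast H3f3a-ps2, closest to a histone H3.3 gene, had 8.06 ± 5.35 against 0.039 ± 0.067 TPM.

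Proteasome and ubiquitin genes, which mark and degrade proteins, were the exception among groups of 5 or more, with a median of -0.47 and 2 of 7 lower. Ube2n-ps1, from a ubiquitin-conjugating enzyme gene, had 69.3, 86.1 and 67.8 TPM in the first and 78.2, 93.1 and 60.4 TPM in the second, with the same library highest in both. Gm10705, from Ube2l3, had 56.7 ± 21.3 and 41.6 ± 17.8 TPM, and Gm9762, from Ube2d2a, had 21.7 ± 2.69 and 48.5 ± 7.65 TPM. The 94 members outside the named groups had 49 lower, 1 higher and a median of -2.54. These group sizes are small apart from the ribosomal one, and the differences between groups were not tested.

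**Figure D4:**
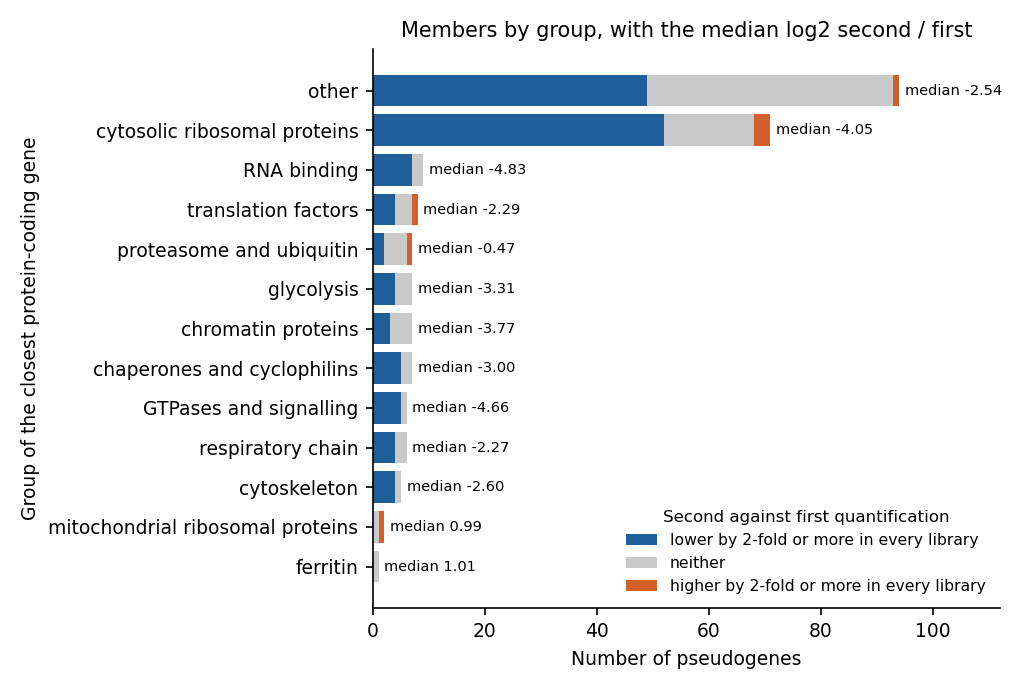
Number of members in each group of closest genes, split into those lower (blue) or higher (orange) by 2-fold or more in every library of the second quantification and those that were neither (grey), with the group's median log2 ratio beside the bar. Cytosolic ribosomal proteins show 52 of 71 lower, and proteasome and ubiquitin genes 2 of 7.

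The 7 members that were higher in every library of the second quantification were Rpl28-ps1, Gm13835, Eif4a-ps4, Gm4332, Gm19253, Rps16-ps2 and Tpt1-ps3. Rpl28-ps1 had 108, 11.2 and 11.2 TPM in the first and 493, 177 and 179 TPM in the second, a log2 ratio of 3.38 ± 1.04, with replicate 1 highest in both. Gm13835, from the proteasome subunit gene Psma3, had 8.39, 6.04 and 3.54 TPM against 58.6, 90.3 and 34.1 TPM, a log2 ratio of 3.30 ± 0.55. Eif4a-ps4, whose single shown difference from Eif4a1 is printed above, had 19.5, 33.6 and 18.1 TPM against 51.1, 193 and 120 TPM. Gm4332, from Rps20, had 74.8, 27.5 and 29.4 TPM against 435, 96.2 and 119 TPM. In each of the 7 the values of the second quantification lay above all those of the first. The rule that chose these 7 favours such a separation, and 5.05% of all 11339 genes tested were higher by the same rule. Rps16-ps2, an exact copy within Rps16, had 127, 108 and 124 TPM against 323, 226 and 261 TPM.

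The 230 members had 191 different closest protein-coding genes, 189 of them detected, with a median of 235 TPM against 15.7 TPM for all detected protein-coding genes, and 129 of them averaged 100 TPM or more. In a limma fit across all 11339 genes averaging 1 TPM over both quantifications, with calls at a Benjamini-Hochberg adjusted p under 0.05 and a mean difference of at least 2-fold, 2.62% of genes were called lower in the second quantification and 6.89% higher. The genes tested include 217 of the members. Among the 9863 tested genes with a protein-coding transcript, the kind to which closest genes belong, 44 were called lower and 126 higher. Of the 189 closest genes tested, 9 were called lower and 0 higher, with adjusted p of at most 3.61e-13 for those 9. Where alignment scores tied, the gene with the higher mean TPM in the first quantification was taken as the closest. For tied genes a shift downward in the second is therefore partly built in. The limma fit took 1 spread for all genes at a given level. A robust prior lets unusually variable genes keep their own, and the same 9 were called under it, again with 0 higher. At an unadjusted limma p under 0.05 and with no fold required, 3 of the 189 were higher. When the second quantification was rescaled so that the median protein-coding gene had a ratio of 1, 21 of the 189 were higher by that rule, 7 in place of 9 were called lower and 0 were called higher, with a median of -0.08 over the closest genes and 0.01 over all genes tested. Without rescaling the closest genes had a median log2 ratio of -0.32, against -0.22 for all genes tested. Rps12, a small-subunit protein gene, went from 1443, 894 and 1038 TPM to 24.02, 18.4 and 14.8 TPM. Over the same step Rps12-ps3, which is annotated protein_coding despite its name, went from 90.2, 24.6 and 21.4 TPM to 1363, 965 and 947 TPM, and the member Rps12l1 was at 0. Rpl12 went from 304 ± 34.4 to 5.35 ± 0.53 TPM, while the member Gm11425, its closest copy, had 19.7, 12.5 and 8.20 TPM against 19.2, 12.6 and 7.43 TPM. Eno1b, Ftl1-ps1, Hnrnpa3, Mrpl23, Rpl10a and Rps15a were also among those called lower.

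A member stood below its closest gene in 218 of 230 pairs of the first quantification, with a median log2 ratio of member to closest gene of -5.09, and of -8.43 in the second. The 12 that stood above it included Rps23-ps1, Rpl31-ps8, Gm7536 and Ndufb4c, all without unique words. Rps23-ps1 took 64.6% ± 6.04 (SD, n = 3) of the TPM summed over itself and Rps23 in the first and 76.4% ± 3.52 in the second. Gm7536 took 66.5% ± 5.96 and 84.5% ± 1.44 of its sum with Rpl27a. How far the sum of a member and its closest gene differed varied between pairs. Gm10123 with Ppia gave 1458 ± 133 TPM in the first and 1477 ± 283 TPM in the second. Rps23-ps1 with Rps23 gave 1251 ± 69.8 and 1062 ± 73.1 TPM, a larger difference than that of Rps23-ps1 alone. The sums were lower in the second quantification for Gm10443 with Rps28, at 2774 ± 397 and 1079 ± 230 TPM. The same held for Gm12338 with Cox7c, at 735 ± 164 and 290.4 ± 60.7 TPM. TPM are scaled by length, so such a sum need not stay the same when reads move between transcripts of unlike length. The first effective length was 21.1, 12.4 and 14.9 bases for Gm10443 and 14.4, 7.74 and 9.60 bases for Gm12338 in replicates 1, 2 and 3.

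Members with the same sequence cannot be distinguished by any read within the transcript. There were 3 such sets with 9 members. Gm11518 and Rpl27-ps3, both 411 bases long and closest to Rpl27, had identical values of 183, 238 and 261 TPM in the first and 133, 122 and 92.0 TPM in the second. Rpl35a-ps2, Rpl35a-ps3, Rpl35a-ps4, Rpl35a-ps6 and Gm10243 each had 6.38, 2.70 and 2.71 TPM against 0, and Gm8783 and Gm15801, closest to Ptp4a1, each had 2.90, 2.10 and 1.22 TPM against 0. Each set therefore entered the list as several genes with equal values.

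The summed level of all members was 10741, 9476 and 8987 TPM in replicates 1, 2 and 3 of the first quantification, 9735 ± 905 (SD, n = 3), and 9704, 6918 and 6008 TPM in the second, 7543 ± 1926. Replicate 1 was highest in both. Single members followed the same order, with 139 of 230 highest in replicate 1, 71 in replicate 2 and 20 in replicate 3, whereas 28.9% of detected protein-coding genes and 39.3% of the closest genes were highest in replicate 1. In the second quantification 127 of the 196 members with any value were highest in replicate 1, against 14.3% of protein-coding genes. Among the 12 members with a posterior standard deviation of 0, 7 were highest in replicate 1 and 0 in replicate 3. In replicate 1, 12 members (5.22%) and 4 protein-coding genes (0.0426%) lay more than 4-fold above the mean of the other libraries. The coefficient of variation over libraries had a median of 37.2% in members and 15.95% in protein-coding genes.

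Replicate 1 also had the lowest total count. Its deposited effective lengths fell short of the gene lengths by a median of 255.95 bases, against 289 and 284 bases in replicates 2 and 3. Macrophage markers summed to 32946, 22740 and 27563 TPM in replicates 1, 2 and 3, also highest in replicate 1. Neutrophil markers summed to 83.3, 714 and 48.4 TPM, highest in replicate 2. T cell markers summed to 34.9, 25.2 and 46.5 TPM, highest in replicate 3, and B cell markers to 1.43, 2.71 and 1.5 TPM. Detected in every library were 3 of 8 neutrophil markers, 1 of 6 T cell markers and 1 of 5 B cell markers. Depth, effective length and marker levels moved between the same 3 libraries, and their part in the order of the members was not tested.

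**Figure D5:**
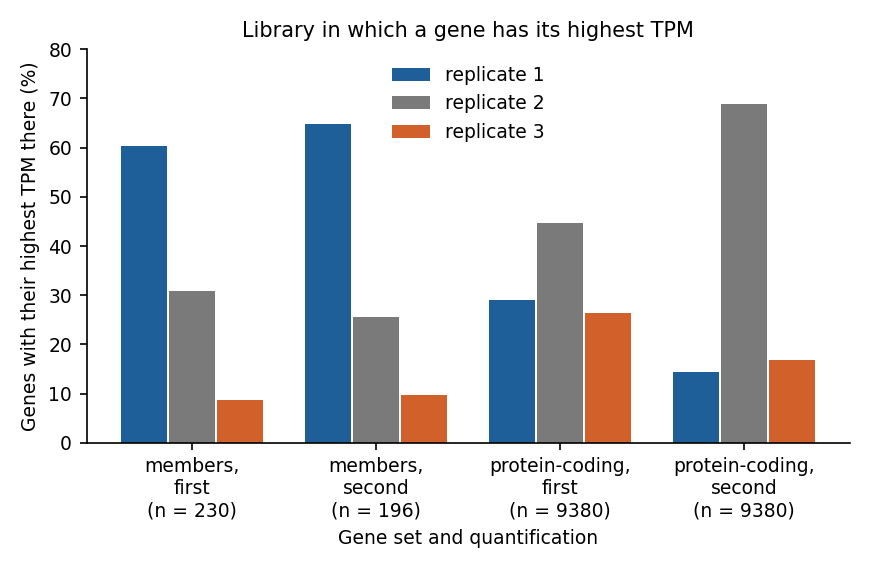
Percentage of genes with their highest TPM in each replicate, for the members and for detected protein-coding genes in both quantifications, with the number of genes under each set. Replicate 1 takes 60.4% of the members in the first quantification and 64.8% in the second, against 28.9% and 14.3% of protein-coding genes.

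The second quantification placed 61 other processed pseudogenes at 1 TPM or more in every library, and 32 of them were listed at 0 throughout the first. Gm12895 and Gm12896, both 226 bases long, had identical values of 239, 414 and 739 TPM in the second. Gm19220 had 258, 120 and 67.9 TPM, Vamp7-ps 19.3, 35.6 and 20.8 TPM and Gm45492 11.0, 34.3 and 26.7 TPM, all at 0 in the first. Vamp7-ps and Gm19220 have 100% and 99.3% unique words, so copies with mostly unique words also differed between the quantifications.

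By position, the members were spread over 20 chromosomes, with at most 20 on 1 chromosome (chromosome 6) and 14 on the X chromosome. A single exon made up 223 of them, and lengths ran from 171 to 3593 bases with a median of 532.5. No overlap with another annotated gene was found for 142 members, while 34 lay in an intron of a gene on the same strand and 38 in an intron on the opposite strand. Overlap with an exon was seen in 22 members, 10 on the same strand and 12 on the opposite strand. Gm17084, for instance, lies within an exon of Ripk1, a kinase gene of cell death signalling, and matches it without a difference. That match is to the same place in the genome, and such matches were not left out of the identities or the exact copies. Gm17084 had 6.54 ± 2.48 and 5.27 ± 2.51 TPM in the 2 quantifications.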

How the data were processed

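Polyadenylated RNA of 3 libraries of 1 group was quantified by the authors in 2 ways, on mm10 with GENCODE M21, per the text files deposited beside the tables. The first deposited gene table, made from transcriptome alignments, holds expected counts, TPM, posterior mean counts and posterior standard deviations of counts. It also holds bounds of a TPM interval, treated here as a signal that is never negative, per the file headers. The second deposited table, made from the reads and an index, holds estimated counts and TPM per transcript and was summed per gene. For the aligner, both quantifiers, their versions and strandedness: not given in the sources used here.

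Members and lists were chosen with earlier results of these data known. The difference per library was log2((second TPM + 0.1)/(first TPM + 0.1)). It was fitted with limma 3.58.1 in R 4.3.3 (intercept only, variance trend, Benjamini-Hochberg over 11339 genes averaging 1 TPM over both tables), and the fit was checked on simulated data. The estimated prior degrees of freedom were infinite, so a robust prior was added after seeing the data. Calls are reported for closest genes and over all genes, and not for the members, whose first values chose them. Closest protein-coding genes came from blastn 2.17.0 (E-value 1e-10, best bit score, ties to the higher mean TPM of the first table). Unique words came from all GENCODE M21 transcripts on both strands. Named members were the 10 highest, the 5 with the most negative and the 5 with the most positive difference, the 5 with the least difference at 10 TPM or more in both tables, the 5 with the most unique words at 5 TPM or more, and 3 on either side of the threshold. To these came 5 pseudogenes found only in the second table. Other members named in groups or sets were chosen after their values were seen, from the highest of their group or as examples. A count of 0 allows up to 3 counts, 1.23e-05%, 8.66e-06% and 4.95e-06% of replicates 1, 2 and 3, for counting error only. A closest gene called lower is not reported here by name.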

Additional observations from a re-analysis of the deposited data

How the results depend on the processing

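No paired analysis was possible because there is a single group; each difference is already taken within a library. The count of 230 members was 306, 168 and 99 at thresholds of 0.5, 2 and 5 TPM, 1030 with the posterior mean TPM, 220 with at least 10 expected counts in every library in place of the TPM threshold, and 244 to 270 without 1 replicate. The 139 lower members became 117 to 157 over the alternatives except 4-fold, which gave 116. The 7 higher members became 12 at 1.5-fold, 2 at 4-fold, 12 with shares of counts without length scaling, and 8 or 9 without 1 replicate. The median log2 ratio of the members, -3.22, was -3.82 with 0.01 TPM added, -1.57 with 1 TPM added and -1.71 with shares of counts; its size depends on these choices and its direction did not change. Without 1 replicate it ran from -3.26 to -2.97. In limma over all genes, 180 in place of 297 were lower after rescaling to protein-coding genes, and 1825 in place of 781 were higher without a filter. The 9 closest genes called lower became 7 after rescaling and stayed 9 in number under the other alternatives. The 3 closest genes higher at an unadjusted p under 0.05 became 21 after rescaling, 1 without a trend and 1 without any 1 replicate. The median ratio of member to closest gene was -2.59 for exact copies alone, against -5.09. Of 24 named members in that fit, 14 were 2-fold or more apart in the mean, and none of the 14 changed direction under the limma alternatives. By more than 1 SD, 6 of the 24 moved with 1 TPM added and 8 after rescaling. Members with few counts limit the precision, since 45 rested on fewer than 10 counts in a library. The share of members highest in replicate 1, 60.4%, was 57.8% for members with 10 or more counts in every library.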
